A study of Mus musculus with 38 samples.

Results

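The cullin scaffold family comprised the 8 genes named Cul1, Cul2, Cul3, Cul4a, Cul4b, Cul5, Cul7, and Cul9, chosen by symbol from the 54165 genes of the count table. Their mRNA was counted in bulk tissue of adult FVB/NJ mice, in the prefrontal cortex (PFC, 20 libraries) and the hypothalamus (Hypo, 18 libraries). Ube3a2X mice were homozygous for a Ube3a transgene whose copies do not depend on the parent of origin, and their WT littermates, bred from heterozygous parents, were the controls. All carriers belonged to a single transgenic line. PFC tissue was taken as micropunches from brain sections, whereas the Hypo was excised with tweezers. In the PFC, each of the 4 groups (WT females, Ube3a2X females, WT males, and Ube3a2X males) had 5 mice. In the Hypo, WT females and WT males had 4 mice each and Ube3a2X females and Ube3a2X males had 5 each. The 38 libraries came from 25 mice, 13 of which gave both tissues. The comparisons below ask how each cullin differed between the tissues, between genotypes within each sex, between the sexes, and in the sex*genotype interaction.

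Cullins are elongated scaffold proteins of the largest class of ubiquitin ligases. The far end of a cullin holds a RING protein (Rbx1, or Rnf7 for Cul5) that brings in the ubiquitin-loaded enzyme, and the near end holds an adaptor and a substrate receptor, so that the receptor decides which protein is marked. Attachment of the small modifier Nedd8 switches the ligase on, the COP9 signalosome removes it, and Cand1 exchanges the receptors. Ube3a, the gene in excess here, is a ubiquitin ligase of a different class (HECT) and needs no cullin.

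Every library was checked for its tissue and genotype labels before the cullins were compared. The sex labels were taken as given. Ube3a stood at 183 to 260 CPM (read counts scaled to library size) in PFC WT libraries and at 686 to 2170 in PFC Ube3a2X libraries, and at 103 to 355 in Hypo WT against 745 to 1720 in Hypo Ube3a2X libraries. CPM were computed after TMM scaling, which corrects for differences in library composition. The summed level of 8 cortex markers reached 2070 to 2740 CPM in PFC libraries against 76.9 to 108 in Hypo libraries, and that of 10 hypothalamus markers reached 586 to 2180 in Hypo against 1.37 to 4.02 in PFC libraries. Each PFC library held 36.9 to 69.1 M counted reads and each Hypo library 39 to 381 M. Several libraries stood apart in their quality measures. Hypo WT male 423 had an RNA integrity number (RIN) of 6.8, while the other Hypo libraries had 8.8 to 9.3. Hypo WT female 471 had 37.5% of its bases in coding sequence, the lowest of the tissue, and PFC WT female 397 and PFC Ube3a2X male 258 had 51.9% and 51%, the highest in the PFC. PFC Ube3a2X female 468 had an AT dropout, the Picard measure of reads missing from AT-rich sequence, of 10.6, against 14.4 to 22.1 in the other PFC libraries.

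The 8 genes differ in base composition as well as in partners. In GRCm38 (GENCODE vM21), Cul7 lies at chr17:46650337-46664364 on the plus strand and Cul9 at chr17:46500572-46546388 on the minus strand, and these neighbours have GC-rich transcripts, with 59.1% and 59.2% GC in the longest one. Cul3 (chr1:80264923-80340480, minus strand) had 38.5% GC, Cul5 (chr9:53614582-53670014, minus strand) 39%, Cul4b (chrX:38533274-38576196, minus strand) 41%, Cul1 (chr6:47453398-47526139, plus strand) 44.1%, and Cul4a (chr8:13105621-13147940, plus strand) 49.1%. Cul2 had 40.6%. An exon of Cul1 overlaps the pseudogene A930035D04Rik on the other strand over 192 bases, and an exon of Cul5 overlaps the antisense gene Gm16124 over 110 bases. The strand setting of the counting is not given in the sources used here, so reads from these stretches cannot be assigned.

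RefSeq start sites on GRCm38.p6 were used for 7 of the 8 members, and that of Cul2 was not examined. The 250 bases before the start are shown for 5 of them because Cul7 and Cul9 varied together across libraries, and so did Cul3, Cul4b, and Cul5, as described further on. Capitals mark matches, on either strand, to CCAAT (bound by NF-Y), GGGCGG (bound by Sp and KLF factors), CGGAAG (bound by ETS factors), or CACGTG (the E-box). No matches overlapped. The windows, each read 5′ to 3′ on the strand of the gene, are chr17:46650088-46650337 (plus) for Cul7, chr17:46546389-46546638 (minus) for Cul9, chr1:80340691-80340940 (minus) for Cul3, chrX:38576197-38576446 (minus) for Cul4b, and chr9:53667508-53667757 (minus) for Cul5.
Cul7: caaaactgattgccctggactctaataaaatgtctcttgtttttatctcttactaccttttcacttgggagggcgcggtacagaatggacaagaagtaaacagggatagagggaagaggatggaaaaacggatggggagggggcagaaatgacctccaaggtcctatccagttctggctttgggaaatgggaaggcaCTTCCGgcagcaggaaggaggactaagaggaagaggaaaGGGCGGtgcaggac
Cul9: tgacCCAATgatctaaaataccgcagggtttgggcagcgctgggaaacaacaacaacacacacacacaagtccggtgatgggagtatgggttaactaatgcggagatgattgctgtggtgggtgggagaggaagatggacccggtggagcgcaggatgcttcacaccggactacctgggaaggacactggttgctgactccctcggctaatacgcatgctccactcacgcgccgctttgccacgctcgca
Cul3: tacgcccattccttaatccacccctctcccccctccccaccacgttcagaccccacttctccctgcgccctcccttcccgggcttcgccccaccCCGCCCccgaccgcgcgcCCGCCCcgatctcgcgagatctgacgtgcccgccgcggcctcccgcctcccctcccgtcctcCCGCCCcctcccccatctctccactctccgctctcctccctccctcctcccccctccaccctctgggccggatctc
Cul4b: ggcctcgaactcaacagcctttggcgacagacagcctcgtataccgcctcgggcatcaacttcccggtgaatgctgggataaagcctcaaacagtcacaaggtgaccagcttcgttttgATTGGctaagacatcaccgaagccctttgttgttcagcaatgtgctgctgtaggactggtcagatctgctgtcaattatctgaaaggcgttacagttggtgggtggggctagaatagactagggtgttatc
Cul5: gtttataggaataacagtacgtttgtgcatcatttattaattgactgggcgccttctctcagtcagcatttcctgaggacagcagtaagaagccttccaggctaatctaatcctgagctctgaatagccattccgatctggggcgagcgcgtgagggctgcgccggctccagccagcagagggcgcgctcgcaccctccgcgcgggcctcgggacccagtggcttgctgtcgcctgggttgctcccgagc
The window of Cul7 had 49.6% GC with 1 match to GGGCGG and 1 to CGGAAG, and that of Cul9 had 56% GC with 1 match to CCAAT. The window of Cul3 had 73.2% GC with 3 matches to GGGCGG, and that of Cul4b had 50.8% GC with 1 match to CCAAT. That of Cul5 had 58.4% GC and 0 matches to these motifs. Among all 32851 promoter windows of this length, 32.7% held GGGCGG, 33.8% CCAAT, 13.6% CGGAAG, and 6.02% CACGTG, and the median GC was 52.4%. Cul7 thus joined a GC-rich transcript to a start region below the median GC, and Cul3 joined an AT-rich transcript to a GC-rich start region.

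All 8 cullins were expressed in both tissues, at levels that spanned about an order of magnitude. Levels are compared between genes as CPM per kilobase of exon (RPKM). In the PFC, Cul3, the scaffold for BTB-domain receptors such as Keap1, was the most abundant, with a median of 46.4 RPKM (36.4 to 68.6 over 20 libraries). Cul1, the scaffold of the SCF ligases with Skp1 and F-box receptors, followed at 34.7 (30.2 to 45.8), and Cul2, which holds Vhl through the elongins, at 17.5 (14.1 to 21). The order in the PFC went on with Cul4b at 12.4, Cul5 at 10.7, Cul4a at 10, Cul9 at 5.13, and Cul7 at 3.62 RPKM. In each of the 20 libraries Cul3 exceeded Cul1, Cul1 exceeded Cul2, Cul4a exceeded Cul9, and Cul9 exceeded Cul7. Cul5 exceeded Cul4a in 13 of 20 libraries, so this pair could not be ordered beyond its spread.

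**Figure D1:**
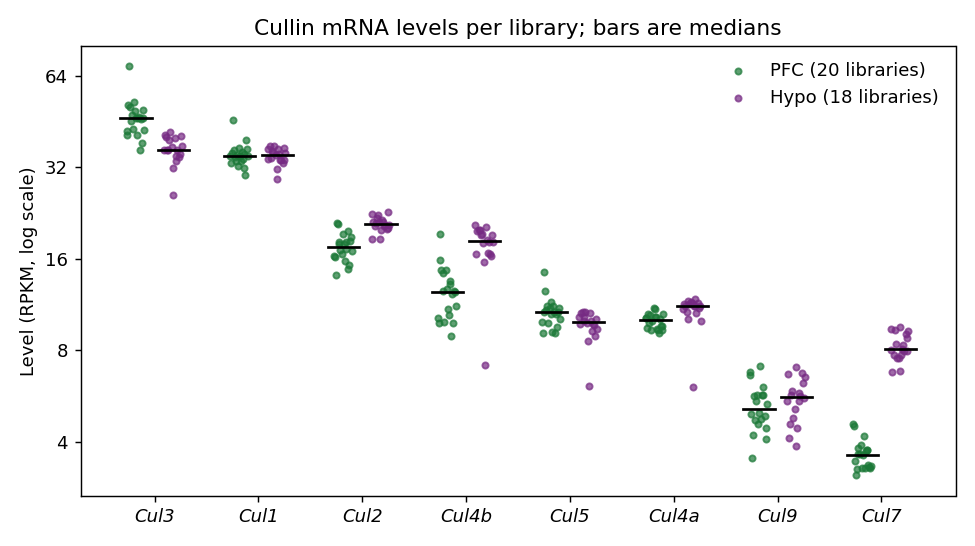
Level of each cullin (RPKM, log scale) in the 20 PFC and the 18 Hypo libraries, with 1 point per library and bars at the medians. Cul3 and Cul1 lie at the top in both tissues, and Cul7 moves from a median of 3.62 in the PFC to 8.04 in the Hypo.

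In the Hypo the order was Cul3 (median 36.5 RPKM), Cul1 (35.2), Cul2 (20.8), Cul4b (18.3), Cul4a (11.2), Cul5 (9.89), Cul7 (8.04), and Cul9 (5.6). Cul3 exceeded Cul1 in only 16 of 18 Hypo libraries and the range of Cul1, 29.3 to 37.5 RPKM, lay within that of Cul3, 25.8 to 41.7. Cul7 exceeded Cul9 in 18 of 18 Hypo libraries, whereas Cul9 exceeded Cul7 in 20 of 20 PFC libraries. Summed over the 8 genes, the family stood at a median of 142 RPKM in the PFC (120 to 186) and 145 in the Hypo (105 to 155). Cul3 made up a median of 32.5% of this sum in the PFC and 25.3% in the Hypo, and Cul7 made up 2.61% and 5.61%. Hypo WT female 471 held the lowest Hypo CPM of 6 of the 8 members, all but Cul2 and Cul7, and there Cul4b was at 27.6 CPM against 60.3 to 79.6 in the other Hypo libraries.

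The largest tissue difference within the family was that of Cul7, a scaffold that pairs with Skp1 and the receptor Fbxw8 and is known for roles in dendrite growth. Cul7 ranged from 23 to 33.9 CPM in the PFC (median 26.8) and from 50.1 to 70.8 in the Hypo (median 59.5). It was the 1 member of 8 whose library ranges did not overlap between the tissues, which was the case for 21.3% of all genes that passed the low-count filter. The difference was 1.19 on the log2 scale (SE 0.0706, adjusted p = 8.5e-17, edgeR quasi-likelihood test with Benjamini-Hochberg adjustment over all genes). In the 13 mice with both tissues the Hypo to PFC ratio of Cul7 was 1.74 to 2.86 with a median of 2.31, and it was above 1 in 13 of 13.

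**Figure D2:**
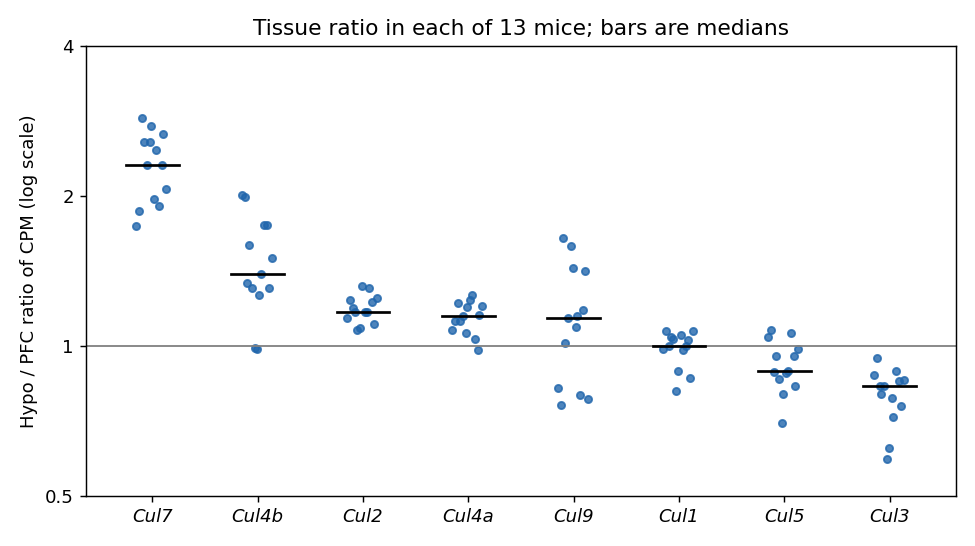
Ratio of the Hypo to the PFC level (CPM, log scale) of each cullin in each of the 13 mice with both tissues, with bars at the medians and a line at a ratio of 1. Every mouse lies above the line for Cul7 and Cul2 and below it for Cul3, while the mice lie on both sides for the other cullins.

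Of the other cullins tested between the tissues, Cul3 was lower in the Hypo, at 126 to 203 CPM (median 178) against 177 to 334 in the PFC (median 226). The difference of Cul3 was -0.46 (SE 0.0884, edgeR adjusted p = 2.51e-05), and its ratio was below 1 in all 13 mice, with a median of 0.829. Cul4b, an X-linked scaffold that uses Ddb1 and DCAF receptors and is mutated in X-linked intellectual disability, was higher in the Hypo, at 27.6 to 79.6 CPM (median 70.8) against 34.4 to 74.9 (median 48.1). The difference of Cul4b was 0.34 (SE 0.143, edgeR adjusted p = 0.0354), with a ratio above 1 in 11 of 13 mice. Cul5, the scaffold of SOCS-box receptors, was lower by a small amount, with medians of 80.7 and 87.5 CPM in the Hypo and the PFC (-0.23, SE 0.0858, edgeR adjusted p = 0.0151), and its ratio was below 1 in 10 of 13 mice. Cul9, the closest relative of Cul7, was not called (0.20, SE 0.102, edgeR adjusted p = 0.0839, interval of 2 standard errors -0.01 to 0.40).

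In all, 4 of the 5 cullins that passed both filters were called between the tissues, against 72.1% of the 10620 genes tested (73.8% at an unadjusted p under 0.05), so the share of calls in the family was near the background. All 8 members passed the filter on low counts, and Cul1, Cul2, and Cul4a were removed by the filter on low variance. Without that filter 66.6% of 12494 genes were called, and Cul2 was higher in the Hypo (0.24, SE 0.0547, edgeR adjusted p = 0.000255), with a ratio above 1 in 13 of 13 mice. Cul1 (-0.06, SE 0.0574, interval -0.18 to 0.05) and Cul4a (0.10, SE 0.0691, interval -0.04 to 0.24) were not called in that fit.

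RIN moved with tissue, with medians of 7.6 in the PFC and 8.95 in the Hypo, and stood in the model. The medians of AT dropout (18.2 in the PFC and 21.4 in the Hypo), of the ratio of coverage at the 5′ to the 3′ end (0.442 and 0.735), of the intronic share (4.08% and 5.7%), and of the correct-strand share (93.7% and 98.4%) differed as well, did not stand in the model, and their part was not tested. With the mouse as a fixed block, in the 26 libraries of the 13 mice, only Cul7 was called (1.21, edgeR adjusted p = 0.000131), and the calls of Cul3 (-0.42, adjusted p = 0.0756), Cul4b (0.42, adjusted p = 0.204), and Cul5 (-0.18, adjusted p = 0.399) were lost. With the same block and no RIN term, 3 cullins were called, with Cul4b at 0.68 and Cul3 at -0.24, and Cul5 was at -0.03 (adjusted p = 0.739). The number of all genes called without the RIN term is not given here. Without Hypo WT male 423, Cul3 and Cul7 were called and Cul4b (0.31, edgeR adjusted p = 0.153) and Cul5 (-0.23, adjusted p = 0.0683) were not. Over the 38 fits that left out 1 library each, Cul3 and Cul7 were called in 38, Cul4b in 33, and Cul5 in 25, while Cul9 was called in 15. The call of Cul4b was also lost without Hypo WT female 262 or 398, PFC WT male 251, or PFC Ube3a2X female 417, with adjusted p of 0.0509 to 0.0625. The call of Cul5 was lost without Hypo WT male 423 or without any 1 of 12 PFC libraries (Ube3a2X males 238, 253, 258, and 267, WT males 256 and 403, WT females 259, 395, and 397, and Ube3a2X females 420, 462, and 468). Its smallest size among these fits was -0.11 without PFC Ube3a2X female 468 (edgeR adjusted p = 0.245). Cul9 reached 0.29 (edgeR adjusted p = 0.0143) without PFC WT male 403. With the GC and length trend of the libraries removed Cul9 was called as well (0.24, edgeR adjusted p = 5.46e-05). In that fit Cul3 (-0.34), Cul4b (0.44, adjusted p = 0.00134), Cul5 (-0.14, adjusted p = 0.000605), and Cul7 (1.25) were called too. Without Hypo WT female 471 the same 4 cullins were called, with Cul4b at 0.36 (edgeR adjusted p = 0.00501). The call of Cul7 held in all of these fits.

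The cell types of the tissues differ as well. In bulk tissue, fewer cells of a type and less RNA per cell cannot be told apart. The median of each of the 7 oligodendrocyte markers was higher in the Hypo, with a summed level of 3190 to 5230 CPM against 982 to 3520 in the PFC. The medians of 4 of 5 excitatory neuron markers were higher in the PFC, with sums of 6260 to 11200 CPM against 763 to 1270. The exception was Slc17a6, with medians of 413 CPM in the Hypo and 10.4 in the PFC, so the sum does not measure all excitatory neurons alike. All 7 microglia and all 6 endothelium markers had higher medians in the PFC, and all 6 choroid plexus and all 6 pituitary markers in the Hypo, where the pituitary sum ran from 14.7 to 4590 CPM. Their part in the tissue differences of the cullins was not tested.

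The genes that act with cullins were called between the tissues about as often as all genes. Of 147 such genes, 97 passed the filters, and 27 were higher and 43 lower in the Hypo, together 72.2% against 72.1% of all genes. Over all genes tested, 37.4% were higher and 34.7% lower. The median difference was -0.16, against 0.04 over all genes tested. Among the receptors of Cul3, 6 of 18 were higher and 10 lower. Klhl13 (2.27, SE 0.0685, edgeR adjusted p = 2.98e-25) was the most significant gene in the higher direction, and Enc1 (-2.56, SE 0.0789, edgeR adjusted p = 5.12e-25) in the lower. Klhl2, a Kelch receptor of Cul3, was lower too (-1.29). In the list of F-box receptors of Cul1 and Cul7, which also held the Cul7 partner Obsl1 (0.30), 7 of 19 were higher and 9 lower, with Fbxo38 at 0.61, Fbxl16 at -2.27, and Fbxw7, a receptor for cyclin E and Notch, at -2.10. Cul2 and Cul5 receptors counted 6 higher and 10 lower of 23, with Klhdc10 at 0.89 and Wsb1 at 1.34. Cul4 receptors counted 4 higher and 2 lower of 11, with Dcaf6 at -1.68.

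In the core machinery, both genes of the exchange list that were tested were higher in the Hypo, Cand2 by 1.67 (SE 0.0894, edgeR adjusted p = 4.04e-18) and Cand1, named after its values were seen, by 0.28 (adjusted p = 0.00171). The RING and adaptor list had 2 of 5 genes called, both lower in the Hypo and also named after their values were seen, the elongin Eloc (-0.95, adjusted p = 2.93e-11) and the SCF adaptor Skp1a (-0.28, adjusted p = 0.0216). The NEDD8 cycle had 1 gene higher and 4 lower of 6, the COP9 signalosome 1 higher and 2 lower of 8, and the ubiquitin transfer enzymes 0 higher and 4 lower of 5.

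In the PFC, the sex*genotype interaction, which is the genotype effect in males minus that in females, split the family by sign. No cullin was called, and neither was any of the 10900 genes tested (0%, edgeR). At an unadjusted p under 0.05, 6 of the 7 cullins tested passed, against 25.2% of all genes. These counts depended on the fit. With the GC and length trend removed 1 cullin (Cul9) and 1087 genes passed, with quality components in place of surrogate variables 1 cullin (Cul5) and 359 genes passed, and without PFC WT female 397 and Ube3a2X male 258 0 cullins and 336 genes passed. The fit without those libraries kept PFC Ube3a2X female 468, which had the lowest AT dropout of the PFC. With RIN as the only covariate 6 cullins and 2349 genes passed. Cul2, Cul3, Cul4b, and Cul5 were negative (M−F+, a negative genotype effect in males and a positive one in females), and Cul7 and Cul9 were positive (M+F−, the reverse). Over all genes, 13.5% were positive and 11.7% negative at that threshold. DESeq2 called Cul3, Cul4b, Cul5, and Cul9, in a fit that called 804 of the 10900 genes.

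Cul9, which also goes by the name Parc, showed the largest interaction. It was at 59.4, 66.3, 69.3, 69.4, and 74.1 CPM in the WT females and at 42.9, 49.6, 51.3, 57.5, and 60.3 in the Ube3a2X females. It was at 55.6, 57.8, 64.7, 68.9, and 69.4 CPM in the WT males and at 54, 60, 80.8, 83, and 86.3 in the Ube3a2X males. In females 4 of the 5 Ube3a2X libraries lay below every WT library, and in males 3 of the 5 Ube3a2X libraries lay above every WT library. The interaction of Cul9 was 0.51 (SE 0.147, edgeR adjusted p = 0.0958), made up of 0.14 for males and -0.37 for females. Cul7 went the same way, with 24.2, 24.3, 24.6, 27, and 27.6 CPM in WT males and 24.4, 25.6, 30.9, 33.4, and 33.9 in Ube3a2X males. The same 3 Ube3a2X males, 238, 267, and 402, held the highest values of both genes. The interaction of Cul7 was 0.28 (SE 0.12, edgeR adjusted p = 0.156).

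**Figure D3:**
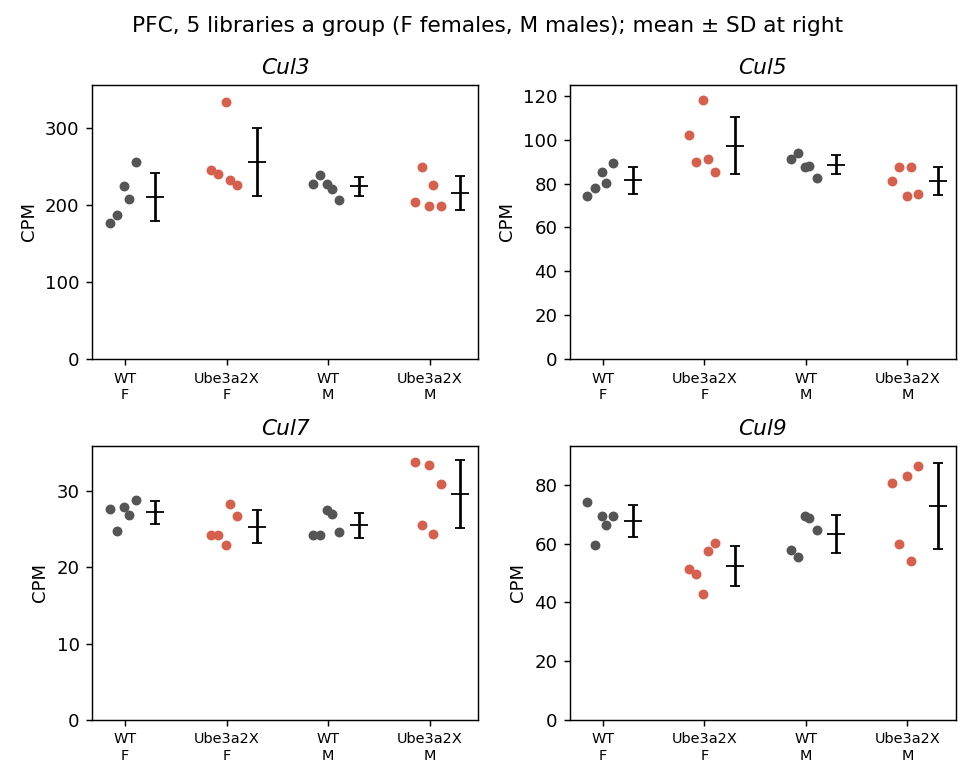
CPM of Cul3, Cul5, Cul7, and Cul9 in the PFC libraries of the 4 groups, with 1 point per mouse and the mean ± SD (n = 5) to the right of the points. Cul9 is lowest in the Ube3a2X females, where 1 library is at 42.9, and Cul3 and Cul5 are highest there, where the same library is at 334 and 118.

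Cul5 showed the opposite arrangement. It was at 74.2, 77.8, 80.4, 85.3, and 89.5 CPM in the WT females and at 85.5, 90, 91.1, 102, and 118 in the Ube3a2X females. It was at 82.7, 87.6, 88.1, 91.2, and 93.9 CPM in the WT males and at 74.4, 75.1, 81, 87.5, and 87.8 in the Ube3a2X males. The groups overlapped in both sexes, with 4 of 5 Ube3a2X females above every WT female and 3 of 5 Ube3a2X males below every WT male. The interaction of Cul5 was -0.30 (SE 0.0855, edgeR adjusted p = 0.0958), made up of -0.15 for males and 0.15 for females.

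Cul4b and Cul3 lay in the same direction as Cul5. Cul4b was at 34.4, 38.1, 38.4, 47.4, and 57.1 CPM in the WT females and at 42.2, 47.9, 55.2, 57, and 74.9 in the Ube3a2X females, and its interaction was -0.29 (SE 0.0881, edgeR adjusted p = 0.097). Cul3 was at 177 to 255 CPM in the WT females, 226 to 334 in the Ube3a2X females, 206 to 239 in the WT males, and 199 to 249 in the Ube3a2X males, with an interaction of -0.22 (SE 0.0771, edgeR adjusted p = 0.11). The groups overlapped for both genes in both sexes. Cul2 had medians of 70 and 79.8 CPM in WT and Ube3a2X females and 75.3 and 68.3 in WT and Ube3a2X males (-0.31, SE 0.11, edgeR adjusted p = 0.115). Cul1 was at -0.15 (SE 0.105, edgeR adjusted p = 0.378), and Cul4a, tested without the variance filter, at -0.03 (SE 0.0781, interval -0.18 to 0.13).

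The sign of the interaction followed the GC content of the transcript. The 5 cullins under 45% GC that were tested were negative, and both cullins over 55% were positive. Among all genes under 45% GC, 83.3% of 3031 were negative, with a median of -0.19, and among those over 55% GC, 13.5% of 2693 were negative, with a median of 0.22. When each library was corrected for its dependence on GC content and exon length, the interaction of Cul9 was 0.19 (adjusted p = 0.493), that of Cul7 -0.03 (adjusted p = 0.913), that of Cul5 -0.09 (adjusted p = 0.615), that of Cul4b -0.12 (adjusted p = 0.592), that of Cul2 -0.07, and that of Cul1 -0.03 (edgeR). Cul3 was then at 0.00 (SE 0.0623, interval -0.13 to 0.12). The trend was fitted to each library without regard to its group. An interaction shared by genes of similar GC content was therefore removed with it, whatever its source. In a separate cohort of mice, the authors reported a sex*genotype interaction of Cul3 in the PFC by qRT-PCR.

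**Figure D4:**
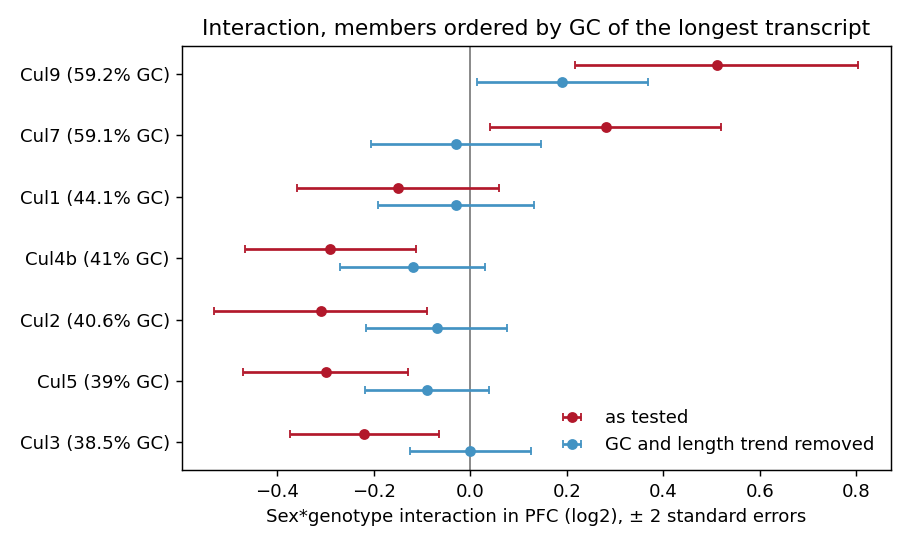
Sex*genotype interaction in the PFC (log2, ± 2 standard errors) for the 7 cullins tested, ordered by the GC content of the longest transcript, as tested and with the GC and length trend of each library removed. As tested, the GC-poor cullins lie left of 0 and Cul7 and Cul9 lie right of it, and with the trend removed all but Cul9 have intervals that include 0.

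Several quality measures differed between the PFC groups. AT dropout ran from 18.7 to 21.1 in the WT females and from 10.6 to 18.3 in the Ube3a2X females, with no overlap, and from 15.8 to 20 in the WT males and from 14.4 to 22.1 in the Ube3a2X males. The intronic share of bases was 4.4% to 5.85% in WT males and 3.1% to 4% in Ube3a2X males, again with no overlap, and the median share of reads on the correct strand was 93.6% and 99.1%. The difference between the mean log2-CPM of Cul7 and Cul9 and that of the 5 GC-poor cullins was -2.13 in Ube3a2X female 468, which had the lowest AT dropout, and -0.73 and -0.80 in Ube3a2X males 402 and 238, which had the highest (21.8 and 22.1). It was -1.21 in WT female 397, with an AT dropout of 21.1, and -0.85 in WT female 259, with 19.3. Microglia markers summed to 412 to 436 CPM in Ube3a2X males and 286 to 423 in Ube3a2X females, endothelium markers to 286 to 432 and 210 to 292, and excitatory neuron markers to 7970 to 11200 and 6260 to 8780. In WT males microglia markers summed to 306 to 397 CPM, below every Ube3a2X male, and excitatory neuron markers to 6710 to 8070. The part of the marker cell types, the intronic share, and the strand share in the interaction was not tested. Without PFC WT female 397 every interaction of the family moved toward 0 or past it, to 0.36 for Cul9, -0.18 for Cul5, and 0.03 for Cul1, and the smallest adjusted p among the cullins was 0.80 (edgeR). Without WT female 93, 5 cullins were called, and without Ube3a2X male 253 or without Ube3a2X female 462, 3 were called. The number of all genes called in these fits is not given here, so these counts cannot be set against a background.

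**Figure D5:**
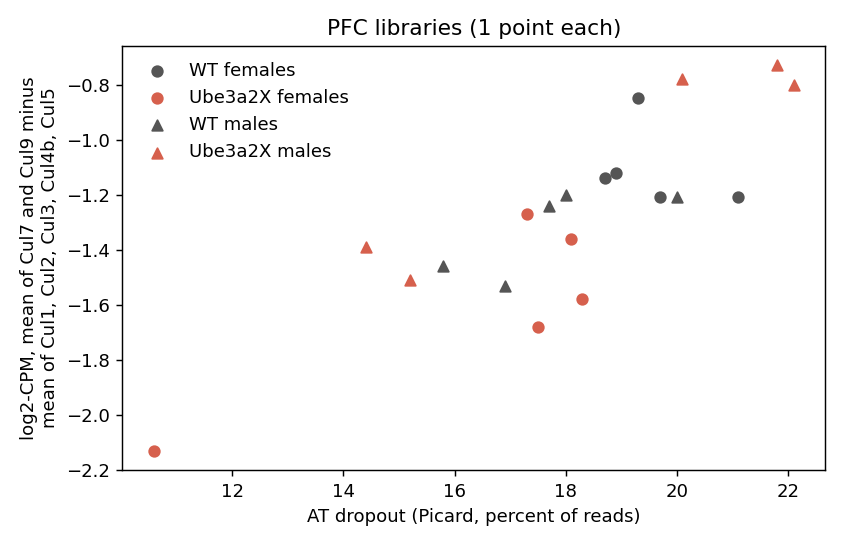
Mean log2-CPM of Cul7 and Cul9 minus the mean of Cul1, Cul2, Cul3, Cul4b, and Cul5 against the AT dropout of each of the 20 PFC libraries, with colour for genotype and marker shape for sex. The library at 10.6 has the lowest difference, -2.13, and 3 Ube3a2X males at 20.1 to 22.1 have the 3 highest, -0.73 to -0.80, while WT female 397 at 21.1 lies at -1.21.

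The machinery genes had no call in this interaction (0 of 103 tested). At an unadjusted p under 0.05, 17 were positive and 29 negative, against 13.5% and 11.7% of all genes, and the median of the list was -0.14, against 0.00 over all genes. In the RING and adaptor list, 4 of 5 genes passed the unadjusted threshold, all in the negative direction. The list of F-box receptors and Cul7 partners had 7 positive and 2 negative of 17, among them the smallest p of all machinery genes, that of Fbxl16 (0.69, SE 0.161, edgeR adjusted p = 0.0958), followed by Fbxo31 (0.47, SE 0.129, adjusted p = 0.0958). These values were not corrected for GC content, which the sign of the interaction followed over all genes.

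Within each sex of the PFC, no cullin was called for genotype, in a test that called 0.0275% of genes in males and 0.00917% in females (edgeR). In males 4 of 7 cullins had an unadjusted p under 0.05, against 18.3% of all genes. These were Cul2 (-0.17), Cul4b (-0.12), Cul5 (-0.15), and Cul7 (0.18), with adjusted p of at least 0.185. With the GC and length trend removed these were -0.05, -0.07, -0.03, and 0.06, and with quality components in place of surrogate variables Cul7 was at 0.02. In females 4 of 7 passed as well, against 14.6% of all genes, namely Cul3 (0.14), Cul4b (0.16), Cul5 (0.15), and Cul9 (-0.37), with adjusted p of at least 0.306. With the trend removed these were 0.03, 0.05, 0.07, and -0.16, and without WT female 397 they were 0.08, 0.09, 0.06, and -0.25. With RIN as the only covariate Cul3, Cul4b, Cul5, and Cul9 were at 0.32, 0.43, 0.28, and -0.43 in females, and their interactions were -0.40, -0.54, -0.44, and 0.55, with no call. Averaged over the sexes, the genotype effects lay between -0.12 and 0.04 for the 7 cullins, 0 of them called, in a test that called 0.0183% of genes, and 0 passed at an unadjusted p under 0.05 (7.9% of genes). The sex effects (males minus females) lay between -0.08 and 0.12, with 0 called against 0.0917% of genes and 0 at an unadjusted p under 0.05 (8.83% of genes). These 5 contrasts use the same 20 libraries and are not independent of each other.

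In the Hypo, no genotype effect on the family was called. The genotype effects averaged over the sexes lay between -0.09 and 0.04 for the 6 cullins tested (edgeR adjusted p of 0.93 or more), with 0 called against 0.00843% of genes and 0 at an unadjusted p under 0.05 (5.24% of genes). In females they lay between -0.03 and 0.07, with 0 called against 0.00843% of genes and 0 at an unadjusted p under 0.05 (2.93% of genes), and in males between -0.18 and 0.08, with 0 called against 0% of genes. The value of -0.18 was that of Cul4b in males, at 64.7 to 78.8 CPM in 4 WT mice and 60.3 to 79.6 in 5 Ube3a2X mice, and it was the 1 cullin of 6 with an unadjusted p under 0.05 (9.2% of genes; SE 0.0774, edgeR adjusted p = 0.524). Without WT female 471 it was -0.07 and without WT male 245 it was -0.23, and over all 27 alternatives it ranged from -0.31 to -0.04. Inhibitory neuron markers summed to 974 to 1180 CPM in the WT males and 668 to 899 in the Ube3a2X males of the Hypo, with no overlap, and their part in this value was not tested. The Hypo interactions lay between -0.19 and 0.08, with 0 called against 0% of genes and 0 of 6 with an unadjusted p under 0.05 (6.9% of genes). Without the variance filter, Cul1 and Cul2 had Hypo interactions of -0.08 and -0.11, neither called. Each interval of 2 standard errors included 0. The signs of 4 of the 6 turned with single libraries, and those of Cul4a (-0.19 to -0.07) and Cul4b (-0.24 to -0.02) did not in 18 fits without 1 library each. Without WT female 471, Cul3 and Cul5 turned from -0.13 and -0.10 to 0.01 each, and Cul7 and Cul9 turned from 0.01 and 0.08 to -0.05 and -0.02. Without Ube3a2X male 238, Cul7 and Cul9 were at -0.06 and -0.03.

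Between the sexes in the Hypo, 0 of 6 cullins were called against 2.3% of genes. Cul3 (-0.11, SE 0.0451, edgeR adjusted p = 0.214) and Cul7 (0.10, SE 0.0386, adjusted p = 0.186), males minus females, had an unadjusted p under 0.05, a threshold that 17.8% of genes passed. With the GC and length trend removed Cul3 was at -0.03 and Cul7 at 0.05, with RIN as the only covariate at -0.03 and 0.07, and with quality components in place of surrogate variables at -0.10 and 0.03, and neither passed that threshold in any of these 3 fits. Among the 105 machinery genes tested, 3 were called between the sexes in the Hypo (2.86%), near the background of 2.3%. Klhl13, which is X-linked, was lower in males (-0.18, SE 0.0418, edgeR adjusted p = 0.0338), as was Socs2, a SOCS-box receptor that restrains growth hormone signaling (-0.54, SE 0.124, adjusted p = 0.0338), and Klhl3, a receptor for WNK kinases, was higher (0.16, SE 0.0416, adjusted p = 0.0491). No difference of the genotype effect between the tissues was called for the 5 cullins tested (0 called against 0% of genes, edgeR). Cul9 had the largest difference, 0.29 (SE 0.134, edgeR adjusted p = 0.618), with an unadjusted p under 0.05, which 7.93% of genes passed. Over the alternatives Cul9 ranged from 0.09 with the GC and length trend removed, where Cul7 had the largest difference (-0.13, adjusted p = 0.453), to 0.51 with the mouse as a fixed block.

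Cul7 and Cul9 varied together across libraries, as did Cul3, Cul4b, and Cul5. After the mean of each group was subtracted, Cul7 and Cul9 had a Pearson r of 0.93 over the 38 libraries. Cul3, Cul4b, and Cul5 had r of 0.88 to 0.94 with each other, and Cul1 had 0.80 with Cul3 and 0.78 with Cul5. Cul2 was less tied to these, with r of 0.64 with Cul1, 0.44 with Cul3, 0.42 with Cul5, and 0.26 with Cul4b, and Cul4a had r of 0.18 with Cul2 and 0.43 to 0.67 with the others of this set. Cul7 and Cul9 against the other members gave r between -0.36 and 0.34, the highest being Cul4a with Cul9. AT dropout and the counted reads differed between these libraries and their part in these values was not tested, and the 13 mice with both tissues count more than once. Single libraries lay far from the rest as well. Hypo WT female 471 had Cul4b at 27.6, Cul5 at 49.8, and Cul4a at 38.8 CPM, against Hypo medians of 70.8, 80.7, and 71.6. PFC Ube3a2X female 468 had Cul3 at 334 CPM, against a PFC median of 226. The r without these libraries, for the members and for the genes named next, was not computed. The genes outside the family most like Cul7 were Ints1 (r = 0.947) and Pcnx3 (0.946), and most like Cul9 were Pcnx3 and Atg2a (both 0.937), whose transcripts have 60% to 61.2% GC. Those most like Cul3 were Rb1cc1 (0.959) and Eif2s3x (0.951), with 39.1% and 44.1% GC, and those most like Cul5 were Cog5 (0.963) and Zfp354c (0.958). Cul4b was most like Gm27624 (0.967) and Nipbl (0.964), Cul4a like Ankib1 (0.922) and Gapvd1 (0.919), Cul1 like Itfg1 (0.918) and Sugt1 (0.917), and Cul2 like Kifap3 and Usp14 (both 0.894).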

How the data were processed

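Poly(A) RNA of the PFC and Hypo was sequenced as stranded paired-end libraries. STAR alignments to GRCm38 were summarised by the authors, who deposited featureCounts read counts per gene (Gencode 24 annotation), unnormalized; versions are not given in the sources used here. They also deposited RIN and AT dropout as a score, base and strand shares as a fraction, coverage evenness and end bias as a ratio, and aligned reads as a count per library. The members and gene lists were chosen with earlier results of these data known. Genes under 100 reads in at least 2 libraries, then the 15% of lowest log2-CPM variance (prior count 2), were removed. Counts were tested with edgeR 4.0.16 (TMM, robust quasi-likelihood) in R 4.3.3. Tissue fits held the 4 groups, RIN, and 2 surrogate variables (sva 3.50.0), and the fit across tissues held 8 groups and RIN. Benjamini-Hochberg adjusted p under 0.05 over all genes was a call. Alternatives used DESeq2 1.42.0 and limma 3.58.1. The scripts were tested on simulated data.

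The text names all 8 members, up to 5 called machinery genes per direction with the smallest p (or 2 where none was called), and the 2 genes most like each member. Libraries of a group came from different mice. Libraries sharing a mouse number come from the same animal by their labels. The deviations from group means of such pairs correlated at -0.556 to 0.408 (median -0.0559), above 0.1 in 3 of 13 mice. The 72 pairs of libraries within groups differed by 12.3 to 569 times the sampling noise, so none was a duplicate. In the quality table, 1 PFC library carried different mouse numbers in its name and its number column and was joined by name. RPKM used the exon union of GENCODE vM21.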

Additional observations from a re-analysis of the deposited data

Results flagged for a closer look

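In 4 of the 64 combinations of member and group, a single library lay far from the other libraries of its group by Dixon's criterion, which chance alone meets in about 5% of groups. Cul3 was at 334 CPM in PFC Ube3a2X female 468, while the other Ube3a2X females were at 226 to 245. This library also had the lowest AT dropout of the PFC. Cul1 and Cul3 were both low in Hypo Ube3a2X male 258, at 128 and 155 CPM, against 136 to 139 and 171 to 178 in the other males of that group. This library had the highest AT dropout of the Hypo, 24.1. Cul4a was at 64.5 CPM in Hypo Ube3a2X female 462, against 71.6 to 73.9 in the other females of that group. The part of AT dropout in these values was not tested.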

How the results depend on the processing

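The count of cullins called was 0 under each alternative run in 10 of the 12 comparisons, all but the PFC interaction and Hypo versus PFC. For the PFC interaction it rose from 0 to 4 with DESeq2 and ranged from 0 to 5 when each library was left out, and for Hypo versus PFC it fell from 4 to 1 with the replicate block of the mouse as a fixed term and ranged from 2 to 5 over the left-out libraries. With the mouse as a random block (limma-voom, consensus correlation -0.168) the count stayed at 4, and with the fixed block and no RIN it was 3. The replicate block left the count of the difference in genotype effect at 0. Over all genes, the fixed block called 4802 against 7654 between the tissues, DESeq2 called 804 against 0 in the PFC interaction and 245 against 3 for genotype in PFC males, and the fit without the variance filter called 15 there. The interaction of Cul1 was -0.15 and ranged from -0.22 to 0.03 over the left-out libraries, turning positive without WT female 397, and was 0.09 without that library and Ube3a2X male 258, and that of Cul7 turned to -0.03 with the GC and length trend removed. Without TMM scaling the order of levels did not change, and the medians of Cul1 and Cul2 in the Hypo were 37.8 and 22.6 RPKM and that of Cul4a in the PFC was 9.14. The causes were not tested, apart from the trend removed by construction. The fixed block without RIN and the fits without 2 or 4 libraries of unusual quality were chosen after seeing the data. Without 4 such libraries, 3 cullins were called between the tissues. For that fit, the fixed block without RIN, and the fits with 1 library left out, the number of all genes called is not given. Their counts of cullins cannot be set against a background. Each member had at least 722 reads in every library, and each group had 4 or 5 mice.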
